A study of Mus musculus with 8 samples.

Results

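The platelet-derived growth factor (PDGF) family was examined through the transcripts of its 4 ligand genes, Pdgfa, Pdgfb, Pdgfc and Pdgfd, and its 2 receptor genes, Pdgfra and Pdgfrb. These 6 genes were found by symbol among the 21848 genes listed in the count files. Cells came from the right sensorimotor cortex of C57Bl/6J mice 6 days after photothrombotic stroke (PT), in which light activates an injected dye and blocks the vessels of a 4-mm disc of cortex. All mice carried subcutaneous pumps implanted 2 days before PT, which delivered saline to 4 control mice or 2.4 U per day of ancrod, a snake venom enzyme that depletes plasma fibrinogen, to 4 mice. The labels give the mice as female, whereas the methods of the study name both sexes and another C57BL/6 substrain, and no uninjured mice were among the samples. The lesion with about 1 mm of spared tissue was taken after removal of the meninges, dissociated with enzymes and passed over myelin removal beads, and cells were not sorted. Each mouse gave 1 single-cell RNA-seq library.

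PDGF ligands are secreted as dimers and act on 2 receptor tyrosine kinases. PDGF-A and PDGF-C act mainly on PDGFRα, PDGF-D mainly on PDGFRβ, and PDGF-B on both. In the brain, endothelial PDGF-B holds pericytes at the capillary wall through PDGFRβ, oligodendrocyte precursor cells (OPCs) depend on PDGF-A acting on PDGFRα, and both receptors are used as markers of perivascular and meningeal fibroblasts. PDGF-A and PDGF-B are cut inside the cell, whereas PDGF-C and PDGF-D are secreted with a CUB domain that tissue or urokinase plasminogen activators remove.

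The genes lie on 5 chromosomes of GRCm39 in the GENCODE annotation. Pdgfa (ENSMUSG00000025856) spans chr5:138961758-138983435 on the minus strand, and Pdgfra (ENSMUSG00000029231) spans chr5:75311994-75358876 on the plus strand of the same chromosome. Pdgfb (ENSMUSG00000000489) lies at chr15:79880009-79899181 on the minus strand. Pdgfc (ENSMUSG00000028019) lies at chr3:80943668-81121473, Pdgfd (ENSMUSG00000032006) at chr9:6168240-6379265 and Pdgfrb (ENSMUSG00000024620) at chr18:61178212-61218133, all on the plus strand. The assay counts unique molecular identifiers (UMIs) from the 3′ ends of transcripts, so a value covers the whole gene and does not separate isoforms. Because capture at the 3′ end differs between genes, levels were compared between cell classes for 1 gene at a time and never between genes.

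Control libraries held 97861434 to 122758649 UMIs and ancrod libraries 126682918 to 142139441, without overlap. Droplets with at least 2000 UMIs and under 20% mitochondrial UMIs numbered 5080 to 6277 per mouse, and 4874 to 5962 were kept after removal of likely doublets, at a median of 10356 to 17329 UMIs per cell. Cell barcodes found in more than 1 library made up 274 of 45940. Clusters were named from marker genes, with the 6 PDGF genes and their pathway left out of the clustering, and each name carries "-like" because the study's own annotation was not used here. The named cells included 16611 microglia-like, 6547 endothelial-like, 4095 astrocyte-like, 2682 macrophage-like, 2244 fibroblast-like, 1216 pericyte-like, 211 smooth muscle-like and 86 OPC-like cells, and 5634 cells stayed unnamed. Some sub-clusters kept a name although their own markers were weak or those of another class were raised, among them 286 of the 899 border-associated macrophage-like cells, 135 astrocyte-like cells led by C1qa, Ctss and Ly86, and 126 pericyte-like cells, some of them led by Ly6c1, Ly6a and Ctla2a. Some values without such doubtful sub-clusters, a choice made after the data had been seen, are given beside the results. No cluster was named oligodendrocyte. Saline 3 gave 22 fibroblast-like cells, against 174 to 243 in the other controls and 97 to 636 in the ancrod mice, and several results in fibroblast-like cells are therefore also given without it. By the labels, batch 1 of injury and sequencing held 3 control and 3 ancrod mice, and batch 2 held 1 of each. Levels are counts per 1000000 UMIs of a class in 1 mouse (CPM), as mean ± SD over mice with at least 10 cells of the class.

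The level of Pdgfrb was highest in mural cells, the pericytes and smooth muscle cells that wrap vessels. Pericyte-like cells held 1402 ± 124 CPM (SD, n = 8 mice), with 1357, 1469.9, 1420.2 and 1604 in saline 1 to 4 and 1242, 1257, 1357 and 1507 in ancrod 1 to 4. Without the 126 doubtful cells it was 1553 ± 155 CPM. With them the level was 4.54 times that of smooth muscle-like cells, which held 309 ± 51.6 CPM (n = 8), and the order held in 8 of 8 mice without overlap of the ranges. Fibroblast-like cells followed at 159 ± 44.8 CPM (n = 8) and were below smooth muscle-like cells in 8 of 8 mice, although these ranges overlapped. Astrocyte-like cells held 43.8 ± 10.7 CPM (n = 8), below fibroblast-like cells in every mouse and without overlap. Endothelial-like cells held 5.30 ± 5.08 CPM, and each of the other classes at most 1.53 CPM on average.

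The level of Pdgfra was highest in OPC-like and fibroblast-like cells. Among the 4 mice with at least 10 OPC-like cells, which gave 61 cells, the level was 1107 CPM in saline 2, 960.2 in saline 3, 1029 in ancrod 3 and 756 in ancrod 4, for a mean of 963 ± 151 (n = 4). Over other sets of cells and mice, the mean was 473 CPM without removal of doublets (8 mice) and 508 when every cluster took the name of its best score (7 mice). The last took in sub-clusters of 44 and 29 cells with raised neuron markers and of 28 cells with raised astrocyte markers, otherwise left unnamed. Fibroblast-like cells held 164 ± 45.6 CPM (n = 8), with 246, 178, 111 and 192 in saline 1 to 4 and 133, 165, 177 and 110.4 in ancrod 1 to 4. The OPC-like level was 5.87 times the fibroblast-like level and higher in each of the 4 mice compared, without overlap. Every other named class averaged below 1 CPM, and the fibroblast-like level was 184.5 times that of endothelial-like cells, the next in order. Pericyte-like and smooth muscle-like cells, rich in Pdgfrb, lay in that low range for Pdgfra.

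**Figure D1:**
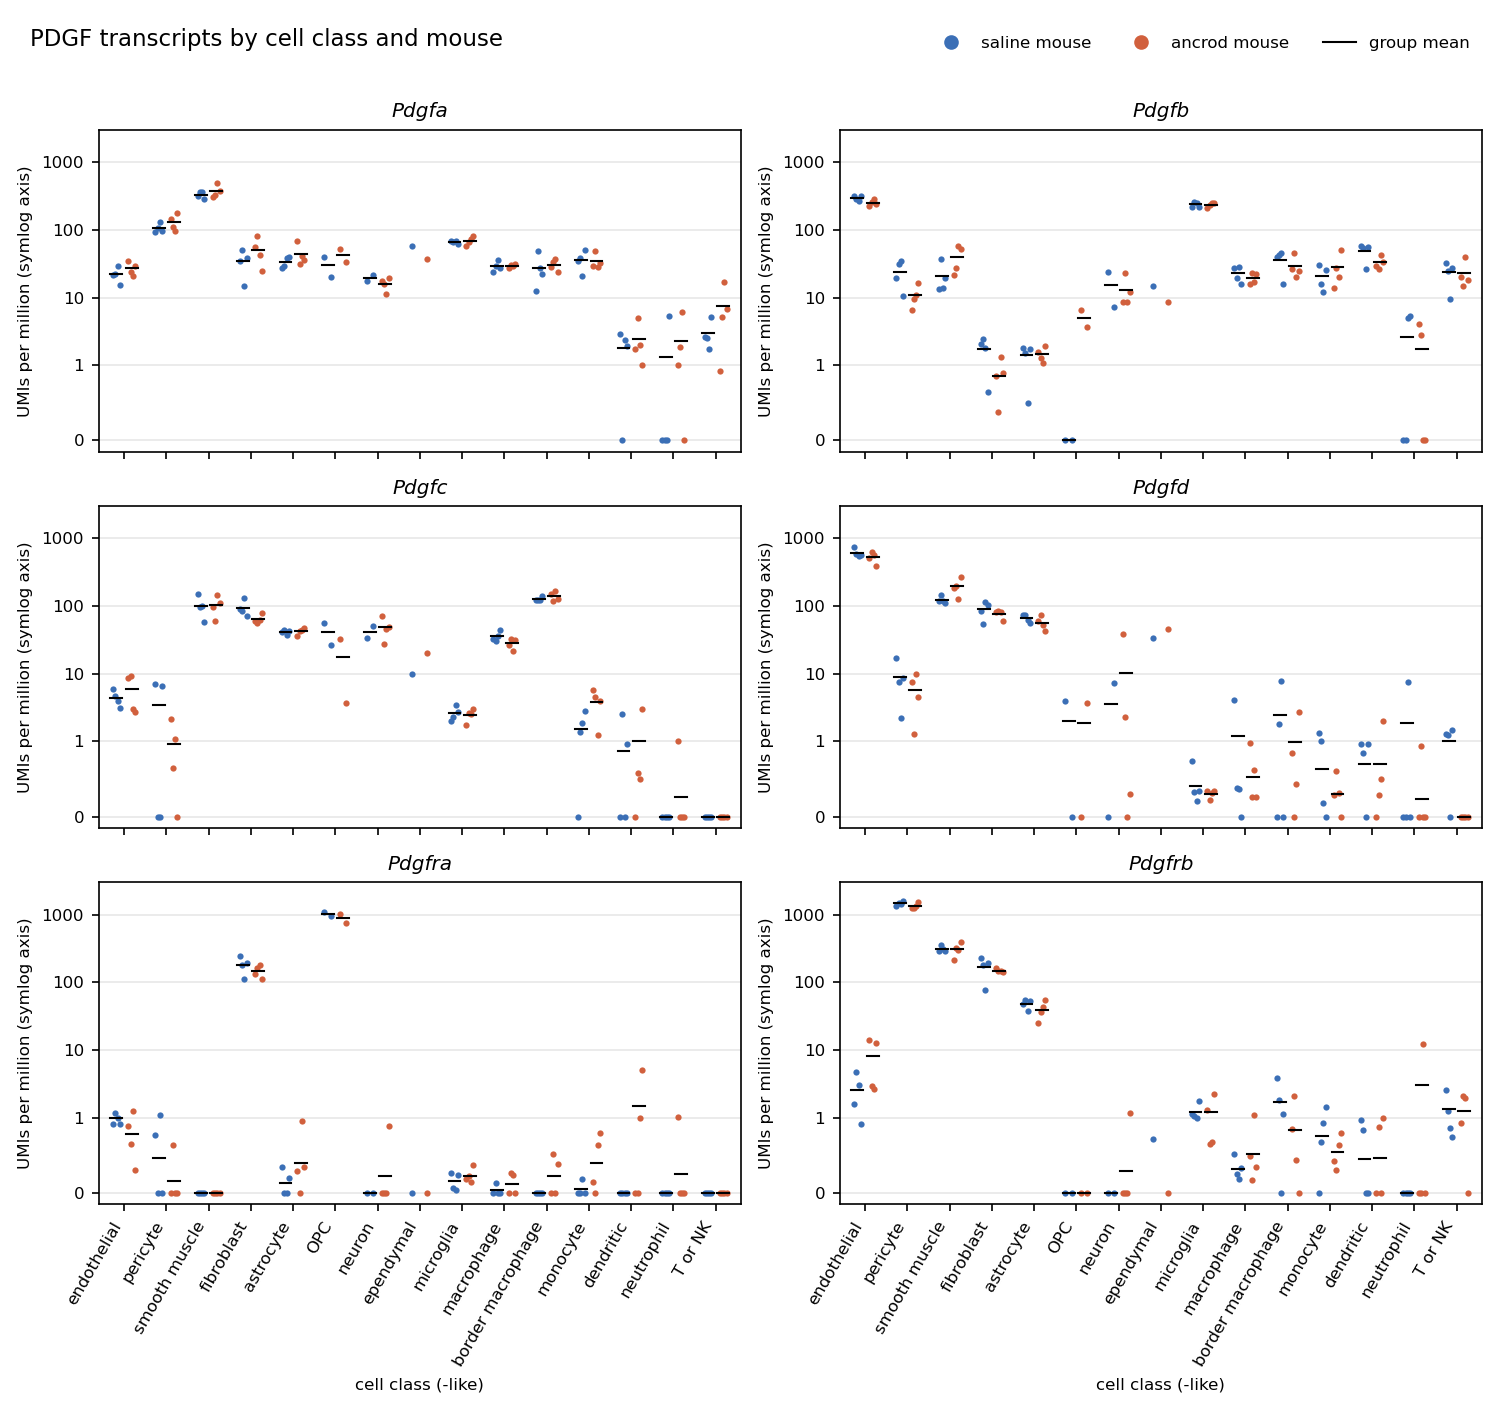
Level of each PDGF gene in CPM (vertical axis, linear below 1 and logarithmic above) by cell class (horizontal axis), with 1 point per mouse and bars for group means. Pdgfrb was highest in pericyte-like cells (1242 to 1604) and Pdgfra in OPC-like cells (756 to 1107), and saline and ancrod mice overlapped for every gene in every class tested.

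The share of cells with at least 1 UMI was compared after each cell had been thinned to 2000 UMIs, because median depth ran from 4668.5 UMIs in neutrophil-like to 41280.0 in fibroblast-like cells. A Pdgfrb UMI was found in 93.1% of pericyte-like, 41.4% of smooth muscle-like, 25.7% of fibroblast-like and 8.94% of astrocyte-like cells thinned in this way. Among T or NK-like cells, lymphocytes used as a gauge of background, Pdgfrb was found in 0.130% of cells after thinning, in 0.523% in a separate random draw, and in 1.36% before thinning, at a median of 8629 UMIs, against a median of 5492 in pericyte-like cells. A Pdgfra UMI was found in 0 of 704 T or NK-like cells, which allows a share of up to 0.426%. Droplets with at most 100 UMIs, which hold free RNA, contained Pdgfrb at 35.8 CPM and Pdgfra at 16.3 CPM on average. In cells of the same libraries Pdgfrb stood at 43.8 CPM in astrocyte-like and 1.22 CPM in microglia-like cells, and the part of free RNA in these levels was not tested.

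Most fibroblast-like cells held both receptors when all UMIs were counted. Without thinning, Pdgfra and Pdgfrb UMIs were found together in 74.4% of fibroblast-like cells on average, Pdgfrb alone in 14.1%, Pdgfra alone in 3.48% and neither in 8.08%. Thinned to 2000 UMIs, the shares were 9.33% for both, 14.7% for Pdgfra alone, 14.8% for Pdgfrb alone and 61.2% for neither. In OPC-like cells Pdgfra stood alone in 82.6% of thinned cells and 0 of 61 cells held UMIs of both, which allows a share of up to 4.92%. In pericyte-like cells Pdgfrb stood alone in 92.3%, in a separate random draw from that above, and 0 of 1216 cells held UMIs of both, which allows up to 0.247%, while without thinning 0.206% of cells held both on average. These limits pool cells over mice and concern cells with UMIs of both after thinning, not cells that express both.

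Within the fibroblast-like class the receptors varied between clusters, described here by their leading genes. The largest cluster, led by Cemip, Lum and Lama1 (917 cells, 7 mice), held the highest Pdgfra at 362 ± 49.9 CPM and the highest Pdgfrb at 254 ± 33.8 CPM. A cluster led by the collagen genes Col1a1, Col1a2 and Col12a1 (578 cells, 7 mice) held Pdgfra at 60.6 ± 10.8 and Pdgfrb at 129 ± 33.1. A cluster led by Mmp3 and the cell division genes H1f5 and Hmmr (276 cells, 7 mice) held Pdgfra at 126 ± 61.8 and Pdgfrb at 155 ± 17.9. Both receptors were lower there than in the Cemip cluster in 7 of 7 mice, without overlap. A cluster led by Penk, Ccn3 and Slc4a10 (315 cells, 5 mice) held Pdgfra at only 14.3 ± 5.59 CPM and Pdgfrb at 58.9 ± 9.403. A small cluster led by Apod and Mdk (115 cells, 6 mice) was shallow, with a median of 3676 UMIs per cell, and held Pdgfra at 56.1 ± 45.3 and Pdgfrb at 75.9 ± 25.7. Over the clusters, Pdgfra thus ranged from 14.3 to 362 CPM and Pdgfrb from 58.9 to 254.

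**Figure D2:**
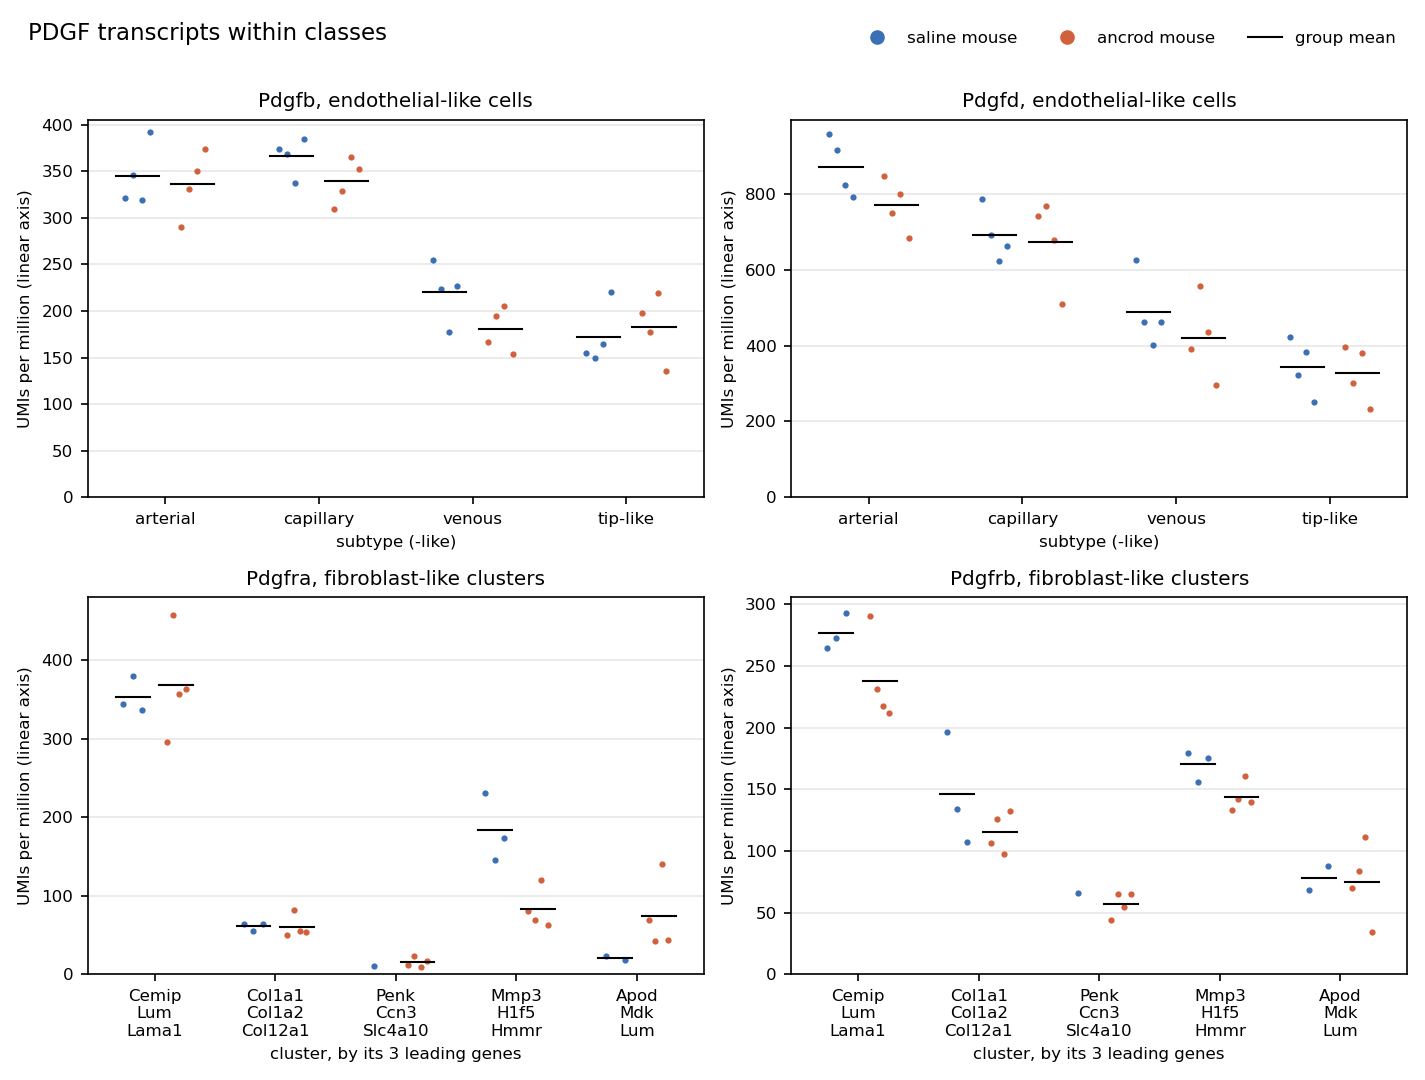
Levels in CPM (vertical axis, linear) of Pdgfb and Pdgfd in endothelial-like subtypes and of Pdgfra and Pdgfrb in fibroblast-like clusters named by 3 leading genes (horizontal axis), with 1 point per mouse with at least 10 cells and bars for group means. Both receptors were highest in the cluster led by Cemip, Lum and Lama1, and Pdgfb was higher in arterial and capillary than in venous cells.

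Astrocyte-like clusters differed in Pdgfrb and in 2 ligands. Clusters led by Wdr17, Gpc5 and Npas3 (403 cells, 7 mice) and by Gpc5, Gabrb1 and Dtna (1220 cells, 8 mice) held Pdgfrb at 74.5 ± 26.2 and 71.0 ± 15.9 CPM, Pdgfc at 97.6 ± 13.8 and 62.9 ± 8.58, and Pdgfd at 148 ± 40.8 and 88.1 ± 26.4. A cluster led by A2m, Fbxo2 and Aqp4 (825 cells) held Pdgfrb at 34.8 ± 6.36, Pdgfc at 33.2 ± 4.14 and Pdgfd at 52.7 ± 15.4. A cluster led by Gfap, Mt3 and Aldoc (1366 cells), the shallowest with a median of 3652 UMIs, held Pdgfrb at 19.2 ± 7.73, Pdgfc at 15.6 ± 2.42 and Pdgfd at 15.5 ± 7.02. Dividing astrocyte-like cells, led by Ckap2 and Pbk (272 cells), held Pdgfrb at 6.41 ± 5.95 and Pdgfc at 18.6 ± 5.64. Pdgfa ran differently, with 9.52 ± 7.06 CPM in the Wdr17 cluster, 18.0 ± 7.41 in the Gabrb1 cluster and 69.9 ± 33.6 in the dividing one. The Wdr17 and dividing clusters were also shallow, with medians of 5211.5 and 6151 UMIs. The medians were 14960.5 in the Gabrb1 cluster and 23087 in the A2m cluster.

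Pdgfb, the ligand that recruits pericytes, was shared by endothelial-like and microglia-like cells. Endothelial-like cells held 274 ± 34.8 CPM (n = 8), with 318, 289, 267 and 316 in saline 1 to 4 and 221.7, 254, 288 and 240.0 in ancrod 1 to 4. Microglia-like cells held 236 ± 18.0 CPM (n = 8), with 221, 260.4, 249 and 216 in the controls and 211, 234, 246 and 248 in the ancrod mice. Endothelial-like cells were higher in 7 of 8 mice, but the ranges overlapped. Dendritic-like cells came next at 40.5 ± 13.2 CPM, below microglia-like cells in 8 of 8 mice without overlap. Macrophage-like cells held 21.1 ± 4.78 CPM, monocyte-like cells 24.3 ± 12.4 and border-associated macrophage-like cells 32.4 ± 12.01. With UMIs pooled, 170 monocyte-like cells of doubtful sub-clusters held Pdgfb at 52.9 CPM and the other monocyte-like cells at 12.2. For doubtful and other cells these values were 31.6 and 19.7 in macrophage-like and 21.0 and 33.3 in border-associated macrophage-like cells. Fibroblast-like cells held 1.296 CPM. Free RNA held Pdgfb at 109 CPM, with 70.5 to 136 over mice. T or NK-like cells held 23.3 ± 9.67 CPM, with a UMI in 4.13% of thinned cells at a median of 8629 UMIs, against 47.3% of endothelial-like and 34.5% of microglia-like cells. The share was 3.33% in macrophage-like and 0.125% in neutrophil-like cells.

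Endothelial-like cells were split by arterial, capillary, venous and tip cell markers, tip cells being those that lead vessel sprouts. Pdgfb was 353 ± 25.5 CPM in capillary (4213 cells), 341 ± 32.4 in arterial (779 cells), 200.4 ± 34.1 in venous cells (1073 cells, of which 56 were dividing cells led by Birc5 with no venous marker among their 10 leading genes) and 177 ± 32.1 in tip-like cells (417 cells). Arterial exceeded venous cells in 8 of 8 mice without overlap, whereas capillary and arterial cells overlapped, as did venous and tip-like cells. Pdgfd was 823 ± 88.1 in arterial, 684 ± 89.3 in capillary, 455 ± 102 in venous and 337 ± 70.3 in tip-like cells. This order held in 7, 8 and 7 of 8 mice at its 3 steps, with overlapping ranges at each step. Pdgfa was 75.6 ± 13.9 in arterial cells and 33.1 ± 10.2 in tip-like cells, without overlap, and 22.1 ± 10.8 and 11.2 ± 2.55 in venous and capillary cells.

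Pdgfb also varied among microglia-like clusters, all of 8 mice. The highest level, 357 ± 36.9 CPM, was in a cluster led by Arl5c, Tnf and Il1a (1359 cells). Clusters led by P3h2 and Csmd3 (2233 cells), by Il1a and Tnf (1659 cells) and by Cd83 (1464 cells) held 301 ± 35.2, 295 ± 26.3 and 289 ± 31.3. The lowest levels were 137 ± 28.1 in a cluster led by Cd5l, Igf1 and Apoc4 (1279 cells) and 132 ± 29.7 in dividing cells led by Mki67 and Top2a (427 cells). The first cluster exceeded the second in 8 of 8 mice, with overlapping ranges. Pdgfa was highest in the cluster led by Il1a and Tnf, at 92.6 ± 15.01 CPM, and lowest in the one led by Cd5l, at 50.8 ± 6.86.

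Pdgfd, a ligand of PDGFRβ, was highest in endothelial-like cells. Endothelial-like cells held 567 ± 95.7 CPM (n = 8), with 737, 589, 547 and 567 in saline 1 to 4 and 519, 619, 558 and 396 in ancrod 1 to 4. This was 3.56 times the smooth muscle-like level of 159 ± 55.1 CPM and higher in 8 of 8 mice without overlap. Fibroblast-like cells held 82.7 ± 20.0 and astrocyte-like cells 61.8 ± 11.5 CPM, with overlapping ranges. Among fibroblast-like clusters Pdgfd was highest in the Penk cluster, the one with the least Pdgfra, at 148 ± 5.19 CPM in 5 mice, and above the Cemip cluster (104 ± 13.996) in 5 of 5 mice without overlap. Immune classes held at most 1.72 CPM.

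Pdgfa was highest in mural cells. Smooth muscle-like cells held 352 ± 64.5 CPM (n = 8), with 316, 363, 357 and 284 in saline 1 to 4 and 303, 326, 492 and 375 in ancrod 1 to 4. Pericyte-like cells held 119 ± 28.6 CPM and microglia-like cells 67.7 ± 6.99, and each step held in 8 of 8 mice without overlap. With UMIs pooled, the 126 doubtful pericyte-like cells held Pdgfa at 212 CPM and the other pericyte-like cells at 88.2. Without a doubtful sub-cluster of 31 cells, smooth muscle-like cells held 302 ± 42.0 CPM. Fibroblast-like cells held 42.7 ± 20.3 CPM, below microglia-like cells in 7 of 8 mice with overlapping ranges. Pdgfa was also found at 39.0 ± 12.9 CPM in astrocyte-like, 36.0 ± 13.1 in OPC-like (n = 4), 35.2 ± 10.1 in monocyte-like, 29.3 ± 3.49 in macrophage-like and 24.6 ± 5.99 in endothelial-like cells, against 39.7 CPM in free RNA and 5.20 ± 5.05 in T or NK-like cells.

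Pdgfc was highest in border-associated macrophage-like cells, a name for the resident macrophages of perivascular spaces and meninges. The class held 134 ± 17.1 CPM (n = 8), with 121, 121, 124 and 142 in saline 1 to 4 and 152, 119, 165 and 129 in ancrod 1 to 4. Its 286 cells of doubtful sub-clusters were led by Gcnt2 and Ifit2, by Spp1 and Fabp5 or by Plac8 and Ly6c2, and with their UMIs pooled held Pdgfc at 26.5 CPM. Without them the level was 168 ± 19.4 CPM. Smooth muscle-like cells held 102 ± 33.6 and fibroblast-like cells 79.2 ± 24.6 CPM, and these 3 classes overlapped. With UMIs pooled, 31 smooth muscle-like cells of a doubtful sub-cluster held Pdgfc at 178 CPM and the other smooth muscle-like cells at 78.3. Macrophage-like cells, named from Arg1, Gpnmb and similar markers, held 32.0 ± 6.47 CPM, and astrocyte-like cells 42.0 ± 3.82. A Pdgfc UMI was found in 0 of 704 T or NK-like cells, which allows a share of up to 0.426%. Among fibroblast-like clusters Pdgfc was highest in the collagen cluster, at 107 ± 26.3 CPM, and above the dividing cluster (64.9 ± 9.99) in 7 of 7 mice with overlapping ranges.

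A class with a high level may still hold few of a gene's UMIs when its cells are few or shallow, and the share of each gene's UMIs was therefore summed by class in each mouse. Microglia-like cells held the largest share of Pdgfa UMIs, although their level was below that of mural cells, and most Pdgfb UMIs. Endothelial-like cells held most Pdgfd UMIs and a mean of 27.4% of Pdgfb UMIs. Fibroblast-like cells held most Pdgfra UMIs in 7 of 8 mice, and in saline 3 their share was 31.9%. OPC-like cells held 0.110 to 37.6% of Pdgfra UMIs and unnamed cells 0.645 to 24.5%. Pdgfrb UMIs were split between fibroblast-like cells and pericyte-like cells, which held a mean of 32.5%, and unnamed cells held 19.4%, with 41.9% in saline 3. Of Pdgfd UMIs, unnamed cells held 14.8%, with 8.38 to 20.9% over mice. Pdgfc UMIs were spread over fibroblast-like, macrophage-like (16.6%), astrocyte-like (15.6%) and border-associated macrophage-like cells (14.8%).

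The share held by the leading class of each gene was compared between groups by an exact permutation test (two-sided, 70 arrangements, smallest possible p = 0.0286) with adjustment over 6 genes. The endothelial-like share of Pdgfd UMIs was 75.0, 82.8, 81.7 and 77.9% in saline 1 to 4 and 58.5, 67.0, 58.2 and 63.2% in ancrod 1 to 4. The groups did not overlap, and the difference of -17.6 percentage points had an exact permutation p of 0.0286 (adjusted 0.0857). The microglia-like share of Pdgfa UMIs was 59.6% ± 3.99 in controls and 46.2% ± 3.61 in ancrod mice (SD, n = 4 each), again without overlap, with a difference of -13.4 points and an exact permutation p of 0.0286 (adjusted 0.0857). Neither passed the adjusted threshold of 0.05. Within batch 1 the differences were -18.6 and -15.6 points, and an exact permutation test of 3 against 3 mice cannot go below p = 0.1. With every cluster named by its best score, the Pdgfd difference was -12.0 points. Its ranges were then 85.2 to 97.3% in controls and 70.6 to 84.5% in ancrod mice. The Pdgfd difference was -12.2 points without doublet removal, -13.5 at a clustering resolution of 1 and -14.1 without doubtful sub-clusters. In the same order, the Pdgfa difference was -12.9, -13.5, -13.4 and -13.4 points. In the same mice, endothelial-like cells made up 18.2 to 20.7% of cells in controls and 6.91 to 15.5% in ancrod mice, and microglia-like cells 39.5 to 42.8% and 25.9 to 41.5%. The part of class size in these shares was not tested, and the Pdgfd level within endothelial-like cells overlapped between groups. Endothelial-like shares of cells did not overlap between groups either. How many of all genes have shares that lie apart between groups in these classes was not counted.

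The shares held by fibroblast-like cells varied between mice. Their share of Pdgfra UMIs was 72.6% ± 27.8 in controls and 90.2% ± 4.78 in ancrod mice (exact permutation p = 0.2, adjusted 0.343), and without saline 3 the difference fell from 17.6 to 3.97 points. Without saline 1 it rose to 24.2 points. Their share of Pdgfrb UMIs was 27.7% ± 17.0 and 45.1% ± 18.3 (exact permutation p = 0.229, adjusted 0.343), and without saline 3 the difference fell from 17.4 to 9.09 points. Without ancrod 2 it rose to 26.2 points (exact permutation p = 0.0571, adjusted 0.114). Their share of Pdgfc UMIs was 30.9% ± 12.6 and 41.6% ± 19.4 (exact permutation p = 0.429, adjusted 0.514), and without saline 3 the difference fell from 10.7 to 4.46 points. Without ancrod 2 it rose to 19.3 points. Fibroblast-like cells made up 0.369 to 4.58% of cells in controls and 1.72 to 10.8% in ancrod mice. The microglia-like share of Pdgfb UMIs was 59.2% ± 5.82 and 61.8% ± 8.38 (exact permutation p = 0.6).

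**Figure D3:**
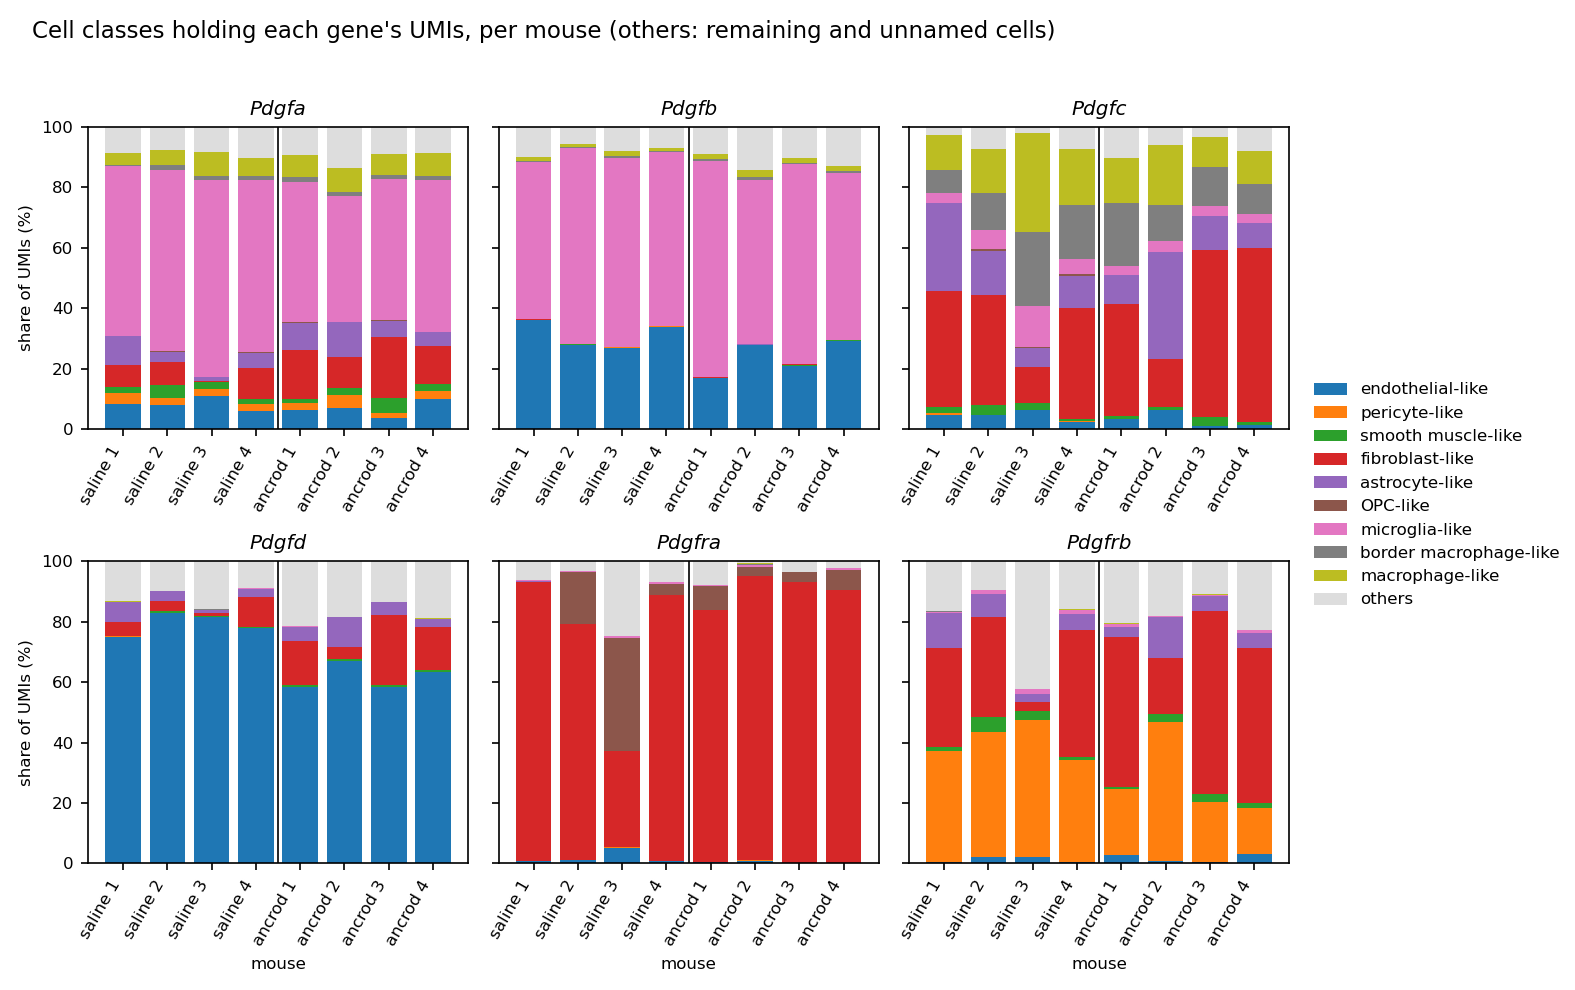
Share of each PDGF gene's UMIs held by each cell class in percent (vertical axis, stacked to 100) for each mouse (horizontal axis, saline left of the line and ancrod right). Endothelial-like cells held 75.0 to 82.8% of Pdgfd UMIs in saline mice and 58.2 to 67.0% in ancrod mice, and saline 3 stood apart in Pdgfra and Pdgfrb with few fibroblast-like UMIs.

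To see whether fibrinogen depletion changed PDGF transcripts within cell classes, the summed UMIs of each mouse in a class went into the quasi-likelihood test of edgeR, with Benjamini-Hochberg adjustment over all genes of that class. The 6 genes gave 39 tests in 11 classes, those in which a gene passed the filter on low counts, and none passed it in neutrophil-like cells. In edgeR 0 of the 39 tests passed an adjusted p of 0.05, and the lowest was 0.336. Over all genes and 12 classes, 4 of 115441 tests passed (0.00346%), with 0.0329% in pericyte-like cells, 0.0106% in monocyte-like cells and 0 in the other 10 classes, so that a count of 0 does not set the PDGF genes apart. With an unadjusted p, 6 of 39 lay below 0.05 (15.4%), against 6.3% of all 115441 tests. DESeq2 gave 0 past the threshold among the 35 tests with an adjusted p, and 6 of 39 below 0.05 unadjusted, against 5.0% of all tests. Saline and ancrod levels overlapped in all 39 tests, against 3.39% of all tests without overlap. By class, the share of all genes without overlap was 5.72% in fibroblast-like, 5.22% in pericyte-like, 3.42% in smooth muscle-like, 5.3% in endothelial-like, 2.27% in astrocyte-like, 2.13% in microglia-like, 1.77% in macrophage-like, 2.93% in border-associated macrophage-like, 3.02% in monocyte-like, 2.9% in dendritic-like, 2.73% in neutrophil-like and 2.62% in T or NK-like cells. Log2 fold changes (ancrod minus saline) were above 0 in 18 and below 0 in 21 tests, with a median of -0.06.

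For the receptors, the intervals in mural and fibroblast-like cells of all 8 mice included no change. Pdgfrb in pericyte-like cells had a log2 fold change of -0.07 (95% interval -0.31 to 0.16) and in smooth muscle-like cells 0.03 (-0.35 to 0.41). Pdgfra in fibroblast-like cells had -0.31 (-0.79 to 0.17, edgeR adjusted p = 0.619), and Pdgfrb -0.19 (-0.75 to 0.36, adjusted p = 0.815). Without saline 3, which had the lowest Pdgfrb of all mice at 76.7 CPM from 22 cells, these values were -0.47 (-0.85 to -0.10, adjusted p = 0.36) for Pdgfra and -0.41 (-0.63 to -0.19, adjusted p = 0.29) for Pdgfrb. Without saline 1 they were -0.16 (adjusted p = 0.908) and -0.041 (adjusted p = 1.00).

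The smallest p among the 39 tests was that of Pdgfb in pericyte-like cells, where few UMIs were found. The level was 19.3, 31.0, 35.0 and 10.47 CPM in saline 1 to 4 and 6.43, 9.64, 10.9 and 16.6 in ancrod 1 to 4, from 6 to 33 UMIs per mouse. The log2 fold change was -1.12 ± 0.37 (SE; 95% interval -1.90 to -0.34), with an edgeR p of 0.00797 and an adjusted p of 0.336, and within batch 1 it was -1.56 (adjusted p = 0.0628). Without doubtful sub-clusters it was -0.83 (adjusted p = 0.723). Beside it, the summed level of the 7 endothelial markers in pericyte-like cells, all 7 detected, was 477 to 539 CPM in controls and 363 to 465 in ancrod mice, without overlap, while 6 microglia markers gave 194 to 249 and 189 to 268. A Pdgfb UMI was found in 3.06% of thinned pericyte-like cells, against 4.13% of T or NK-like and 0.125% of neutrophil-like cells. Free RNA held Pdgfb at 112, 129, 122 and 136 CPM in saline 1 to 4 and 82.4, 87.8, 70.5 and 131 in ancrod 1 to 4. The part of endothelial or free RNA in the pericyte-like level was not tested.

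In endothelial-like cells Pdgfb had a log2 fold change of -0.26 (95% interval -0.46 to -0.05, edgeR adjusted p = 0.377), and within batch 1 it was -0.19. By subtype, control and ancrod means were 366 and 339 CPM in capillary, 345 and 336 in arterial, 221 and 180.1 in venous and 172 and 183 in tip-like cells. Pdgfd in endothelial-like cells had -0.23 (-0.55 to 0.09, adjusted p = 0.521).

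Pdgfrb in endothelial-like cells had a log2 fold change of 1.63 (95% interval 0.24 to 3.02, edgeR adjusted p = 0.386), which was -0.0032 (adjusted p = 0.998) without doubtful sub-clusters. It was 0.73 when every cluster took the name of its best score, 1.05 within batch 1 and 1.26 to 2.12 without 1 mouse. The level was 1.60, 4.69, 3.01 and 0.916 CPM in saline 1 to 4 and 13.9, 2.92, 2.63 and 12.7 in ancrod 1 to 4, so that ancrod 1 and ancrod 4 alone stood above the controls. Of 574 Pdgfrb UMIs in 6547 cells, 436 lay in 29 cells with at least 5 UMIs each. Of the 29 cells, 25 belonged to the 56 dividing cells placed with the venous cells, whose leading genes included the pericyte marker Vtn and which held 408 of the UMIs, and 4 were tip-like cells. Ancrod 1 gave 8 and ancrod 4 gave 11 of the 29 cells. In the same class the summed level of 8 fibroblast markers, of which Dpt was at 0, was 45.6 to 68.6 CPM in controls and 292, 44.6, 125 and 203 in ancrod 1 to 4, and 7 pericyte markers gave 190.0 to 258 and 225 to 355. The part of RNA from such cells was not tested.

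Pdgfd in smooth muscle-like cells had a log2 fold change of 0.64 (95% interval 0.16 to 1.13, edgeR adjusted p = 0.644), and within batch 1 it was 0.39. The level was 120.1, 146, 119 and 111 CPM in saline 1 to 4 and 184, 198, 126 and 270.3 in ancrod 1 to 4. Single cells carried much of it: 1 cell held 53 of the 83 UMIs of ancrod 4 and 1 cell 36 of the 71 UMIs of ancrod 3, whereas the highest cell of any control held 13. The summed level of 7 endothelial markers in this class was 201 to 426 CPM in controls and 162, 930.0, 902 and 704 in ancrod 1 to 4, and its part in the result was not tested. Pdgfa in smooth muscle-like cells had 0.22 (-0.15 to 0.60), and -0.055 without a doubtful sub-cluster of 31 cells.

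Pdgfc had a negative fold change in fibroblast-like, macrophage-like and microglia-like cells and a positive one in the other classes tested, and none passed the threshold. In fibroblast-like cells the level was 91.1, 83.1, 132 and 71.0 CPM in saline 1 to 4 and 59.3, 56.8, 61.7 and 77.9 in ancrod 1 to 4, and the log2 fold change was -0.49 (95% interval -0.91 to -0.07, edgeR adjusted p = 0.466). Without saline 3 it was -0.33 (adjusted p = 0.42), and within batch 1 it was -0.76 (adjusted p = 0.59). In macrophage-like cells the level was 32.2, 30.5, 35.8 and 44.2 in controls and 27.0, 32.6, 21.9 and 31.6 in ancrod mice, with -0.37 (-0.67 to -0.07, edgeR adjusted p = 1.00) and -0.32 within batch 1. Of the 2619 Pdgfc UMIs in these 2682 cells, 1117 lay in 145 cells with at least 5 UMIs each. The summed level of 6 border-associated macrophage markers in macrophage-like cells was 740 to 968 CPM in controls and 597 to 911 in ancrod mice, and the ancrod mean was higher for 1 of the 6. In fibroblast-like cells the same markers gave 3.54 to 7.30 and 4.70 to 5.43 CPM, with a higher ancrod mean for 0 of 6, and their part in the results was not tested. In microglia-like cells the Pdgfc fold change was -0.06 (-0.56 to 0.43). In border-associated macrophage-like cells, where Pdgfc was highest, it was 0.14 (-0.13 to 0.41). The Pdgfc fold change was 0.42 (-0.49 to 1.33) in endothelial-like, 0.11 (-0.50 to 0.71) in smooth muscle-like and 0.02 (-0.23 to 0.28) in astrocyte-like cells. Among the other values in microglia-like cells, the intervals were narrow for Pdgfb, at 0.02 (-0.19 to 0.24), and Pdgfa, at 0.10 (-0.12 to 0.32). They were wide for Pdgfd, at -0.29 (-1.15 to 0.57), and Pdgfrb, at 0.03 (-0.83 to 0.90).

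**Figure D4:**
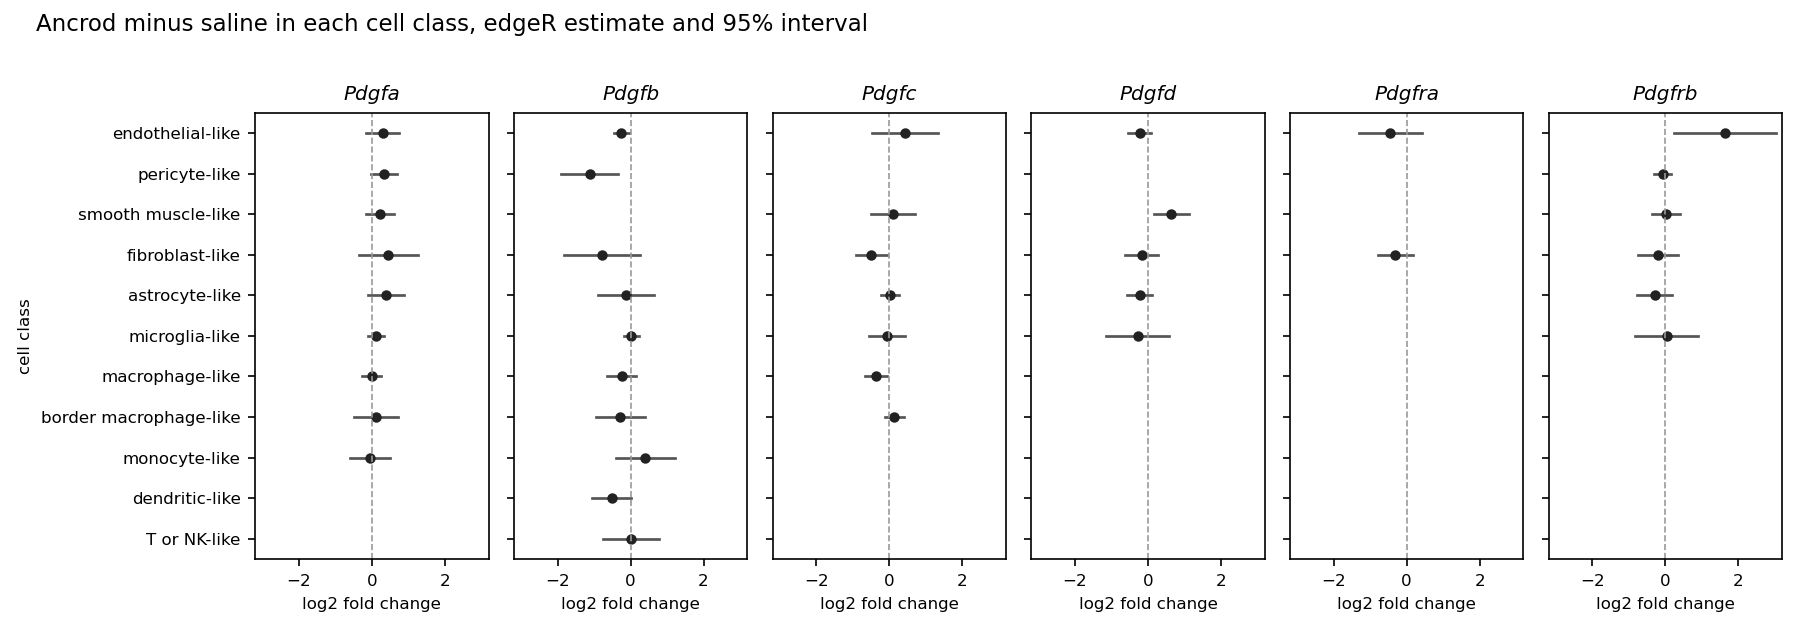
Log2 fold change of each PDGF gene, ancrod minus saline (horizontal axis), in each cell class in which it was tested (vertical axis), with points for edgeR estimates and lines for 95% intervals. No test passed an adjusted p of 0.05, and the intervals ran from -0.19 to 0.24 for Pdgfb in microglia-like cells and from 0.24 to 3.02 for Pdgfrb in endothelial-like cells.

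Whether fibrinogen depletion changed the mix of receptors in single fibroblast-like cells was tested on cells thinned to 2000 UMIs, with exact permutation tests adjusted over 3 shares. Both receptors were found in 10.7% ± 4.16 of cells in controls and 7.98% ± 2.11 in ancrod mice (SD, n = 4 each; exact permutation p = 0.286, adjusted 0.857), and without saline 3 the difference grew from -2.70 to -4.75 points (exact permutation p = 0.0571). Pdgfra alone was found in 14.3% ± 6.75 and 15.1% ± 3.91, and Pdgfrb alone in 14.9% ± 10.2 and 14.7% ± 2.69. Without saline 3, the difference in Pdgfra alone turned from 0.771 to -2.48 points, and that in Pdgfrb alone moved from -0.245 to -5.22 points, with 18.1 to 23.2% in controls and 11.3 to 17.5% in ancrod mice (exact permutation p = 0.0571, the smallest that 3 against 4 mice allow). Without thinning, both receptors were found in 78.6% ± 4.21 and 70.2% ± 1.58 of cells (exact permutation p = 0.0286, adjusted 0.0857). The groups lay only just apart, with 72.4 to 81.8% in controls and 68.7 to 72.1% in ancrod mice. The highest control was saline 3, with 22 cells. The part of depth was not tested, and how often other genes lie apart in this measure was not counted.

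**Figure D5:**
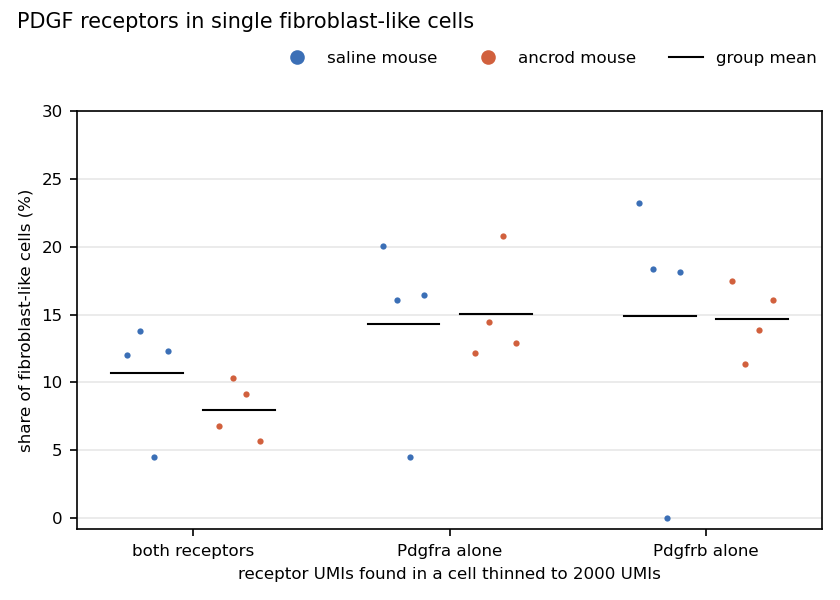
Share of fibroblast-like cells in percent (vertical axis) with UMIs of both receptors, of Pdgfra alone or of Pdgfrb alone (horizontal axis) after thinning each cell to 2000 UMIs, with 1 point per mouse and bars for group means. The lowest point in each column is saline 3, with 22 cells, and the groups overlapped in all 3 columns.

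Around the receptors, 35 genes of the pathway were followed, comprising ligand processing (Furin, Plat, Plau), extracellular binding partners (Sparc, Lrp1, Nrp1), adaptors and enzymes that dock on the activated receptors, and negative regulators such as Cbl and Ptprj. In 384 tests over 12 classes, 0 passed an adjusted p of 0.05 in edgeR, 0 in DESeq2, and 33 (8.59%) lay below 0.05 unadjusted in edgeR, against 6.3% over all genes. In fibroblast-like cells all 35 were tested and 4 (11.4%) lay below 0.05 unadjusted, against 9.98% of all genes of the class, with a median log2 fold change of -0.01 against 0.01 over all genes. Among the smallest p values there were those of the SH2 adaptor Nck2 at -0.29 (edgeR adjusted p = 0.435) and the docking protein Gab1 at -0.54 (edgeR adjusted p = 0.45). In pericyte-like cells 34 were tested and 6 (17.6%) lay below 0.05 unadjusted, against 9.2% of all genes of the class, with a median of 0.09 against -0.0045 over all genes. The smallest p values were those of the phosphatase Ptpn1 at 0.40 (adjusted p = 0.415), the PI3K regulatory subunit Pik3r1 at 0.26 (adjusted p = 0.425) and the phosphatase Ptprj, which acts on PDGFRβ, at -0.46 (adjusted p = 0.462).

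Across 14 classes, the genes whose mean log2(CPM + 1) followed each PDGF gene most closely were ranked by Pearson's r among 11994 genes, as a description over classes that share libraries. Pdgfrb was followed most closely by Rarres2 (r = 0.98), Sod3 (0.97) and Heyl (0.96), each highest in pericyte-like cells among the 14 classes. Ependymal-like cells, with at least 10 cells in only 2 mice, were not among these classes, and Rarres2 was one of the markers that named them. Pdgfra was followed by Sema3d (0.98), Inava (0.94) and Cldn11 (0.94), the first 2 highest in OPC-like cells and Cldn11 in fibroblast-like cells. Pdgfd was followed by the endothelial genes Ephb4 (0.93), Wfdc1 (0.92) and Fzd4 (0.91). The closest genes were less close for Pdgfb, with Prkx (0.84), Zbtb7a (0.82) and St8sia6 (0.80), for Pdgfc, with Samd4 (0.83), Kif3a (0.81) and Igfbp4 (0.81), and for Pdgfa, with Snx12 (0.90), Fance (0.88) and Fez2 (0.86).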

How the data were processed

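Per the labels, 1 library per mouse was made with a 10x Genomics 3′ kit, and the submitters' processing notes name Cell Ranger 7.1.0, STAR and GRCm39. The authors deposited raw UMI counts per gene and droplet, without normalization, for every barcode. Here, droplets with at least 2000 UMIs and under 20% mitochondrial UMIs were kept, and the highest doublet scores of a Scrublet-type procedure were removed at 0.8% per 1000 cells. Cells were clustered on 3000 variable genes without the PDGF and pathway genes (20 principal components, 20 neighbours, Leiden resolution 2) and named from marker lists. Of the listed markers, 2 were not among the genes used. The rules that left clusters unnamed, and the count of cells with at least 5 UMIs, were set after the data had been seen. The members, marker lists and pathway list were chosen with earlier results of these data known.

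UMIs were summed per mouse (at least 10 cells) and class (at least 3 mice per group), and tested with edgeR 4.0.16 (filterByExpr, TMM, glmQLFTest, two-sided, Benjamini-Hochberg per class, threshold 0.05). R was version 4.3.3, and DESeq2 1.42.0 was an alternative. The script was tested on simulated data. The text names the 6 PDGF genes, the 3 pathway genes with the smallest p in fibroblast-like and pericyte-like cells, and the 3 genes of at least 20 CPM in their highest class most correlated with each PDGF gene. One pathway gene that this rule names is not reported here. Mice are separate animals. Batch 2 holds 1 mouse per group and gives no value of its own. Other experiments of the study, such as imaging, were not analysed here. No sequences were used.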

Additional observations from a re-analysis of the deposited data

Results flagged for a closer look

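Among 96 groups of 4 mice, in levels of the PDGF genes and shares of their UMIs, 4 held a single mouse far from the other 3, and chance flags about 1 group in 20. Pdgfd in fibroblast-like cells was 59.1 CPM in ancrod 4, against 81.0 to 84.5 in the other ancrod mice. Pdgfc in border-associated macrophage-like cells was 142 CPM in saline 4, against 121 to 124 in the other controls. Pdgfb in dendritic-like cells was 26.3 CPM in saline 3, against 53.0 to 57.3. Fibroblast-like cells held 12.03% of the Pdgfc UMIs of saline 3, the mouse with 22 such cells, against 36.5 to 38.2% in the other controls.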

How the results depend on the processing

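No test of a PDGF gene passed an adjusted p of 0.05 in any of the alternatives run, among them the newer dispersion estimate of edgeR and stricter sub-clusters, both added after seeing the data, and the lowest adjusted p was 0.0628 (Pdgfb in pericyte-like cells, batch 1 only). All genes past the threshold numbered 252 with DESeq2, 289 without the filter on low counts, 130 without doublet removal, 22 in batch 1 only, 12 with batch as a term, 8 at resolution 1, 8 with mitochondrial UMIs under 10%, 2 with at least 5000 UMIs, 6 with the newer dispersion estimate, 5 with stricter sub-clusters and 0 to 29 without 1 mouse, against 4. The cause was not tested. Of the pathway genes, 1 passed without the filter on low counts.

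Replicate numbers did not pair the mice: same-numbered mice gave correlations of -0.355 to 0.247 over classes, and no class had all 4 above 0.1. With the replicate block, 51 genes passed, 0 of them PDGF genes.

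Fold changes turned in direction in 22 of 501 values. In batch 1 only, these were Pdgfd in fibroblast-like (0.012), Pdgfc in smooth muscle-like (-0.067), Pdgfrb in smooth muscle-like (-0.12), Pdgfc in astrocyte-like (-0.047), Pdgfa (-0.020), Pdgfb (-0.051) and Pdgfrb (-0.21) in microglia-like and Pdgfa in monocyte-like cells (0.19). With the replicate block these were Pdgfb in astrocyte-like (0.0063), Pdgfrb in microglia-like (-0.090) and Pdgfa in macrophage-like cells (0.010). Batch as a term gave -0.029 for Pdgfrb in microglia-like cells, mitochondrial UMIs under 10% gave 0.0010 for Pdgfa in macrophage-like cells, and no doublet removal gave -0.0028 for Pdgfb in microglia-like and -0.25 in T or NK-like cells. The last was -0.023 with DESeq2 and -0.0019 with every cluster named by its best score. With stricter sub-clusters, which lose their name also below an own marker score of 0.25 or from an excess of 0.1 in another class's score (arterial cells among them), values were -0.0032 for Pdgfrb in endothelial-like, -0.055, -0.019 and 0.077 for Pdgfa in smooth muscle-like, border-associated macrophage-like and monocyte-like and -0.0033 for Pdgfb in T or NK-like cells. Leaving out 1 mouse turned 26 of 308 values, in Pdgfc (-0.14 to 0.32) and Pdgfrb (-0.10 to 0.13) in smooth muscle-like, Pdgfc in astrocyte-like (-0.055 to 0.11), Pdgfc (-0.18 to 0.12), Pdgfd (-0.50 to 0.089), Pdgfb (-0.025 to 0.089) and Pdgfrb (-0.42 to 0.25) in microglia-like, Pdgfa in macrophage-like (-0.095 to 0.11), border-associated macrophage-like (-0.064 to 0.47) and monocyte-like (-0.31 to 0.16) and Pdgfb in T or NK-like cells (-0.40 to 0.19).

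Leading levels moved in 9 of 41 values, and in 0 of 48 without 1 mouse. As a mean over cells, Pdgfb in endothelial-like cells was 332 CPM, Pdgfrb in pericyte-like cells 1557 and Pdgfc in border-associated macrophage-like cells 112. The last was 165 without doublet removal and 167 at resolution 1, and with stricter sub-clusters it was 168 and Pdgfrb in pericyte-like cells 1553. Pdgfra in OPC-like cells was 473 without doublet removal (8 mice) and 508 with every cluster named by its best score (7 mice), and no cluster was OPC-like at resolution 1. The microglia-like share of Pdgfb UMIs differed by -0.578 to 5.11 points without 1 mouse. The share of fibroblast-like cells with Pdgfra alone differed by -4.81 points without doublet removal and by -2.48 to 2.70 without 1 mouse, and Pdgfrb alone by 6.71 without thinning, 0.360 in batch 1 only and -5.22 to 2.52 without 1 mouse. Depth limits the test of Pdgfb in pericyte-like cells, with 6 to 33 UMIs per mouse. The zero limits cover counting error only.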

Other observations

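In the fibroblast-like cluster led by Mmp3 and division genes, Pdgfra was 230.5, 146 and 174 CPM in saline 1, 2 and 4 and 80.6, 69.3, 121 and 62.7 in ancrod 1 to 4, from 17, 14 and 26 control cells and 41, 16, 56 and 106 ancrod cells. The groups did not overlap, as in 10.9% of the 11008 genes with at least 10 UMIs in at least 3 of these mice, saline 3 had 2 such cells, and the comparison was chosen after the values had been seen and was not tested. Pdgfrb in the same cluster averaged 170.1 CPM in those controls and 144 in ancrod mice. In the cluster led by Cemip, Lum and Lama1, Pdgfra averaged 354 CPM in controls and 369 in ancrod mice.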
